A study of Mus musculus with 6 samples.

Results

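Pseudogenes are copies of genes that are annotated as not making the protein of the gene they resemble. They were described here in hippocampal RNA of Cx3cr1-NuTRAP mice, as the rows of the deposited RNA-seq table whose gene type holds the word pseudogene. There were 603 such rows of 15388 in all. The table held 7 types, with 478 processed, 47 transcribed processed, 35 unprocessed, 28 transcribed unprocessed, 6 plain, 5 transcribed unitary and 4 polymorphic pseudogenes. The comparison was between 3 Input and 3 Positive libraries. Both fractions came from the same 3 animals, numbered 201, 207 and 208, whose genotype was Cx3cr1-Cre/Ert2+; NuTRAP+ and whose Cre had been induced by tamoxifen for 5 days. The mice of the study were about 3 months old and of both sexes, and the sex of each of these 3 was not used here. Cre was driven by the Cx3cr1 promoter, which is active in microglia and also in other macrophages. After recombination the NuTRAP reporter tagged ribosomal protein L10a with GFP, and ribosomes carrying the tag were pulled down from the homogenate in translating ribosome affinity purification (TRAP) to give the Positive fraction. Input was part of the cleared homogenate before the pulldown, so that it held RNA of every hippocampal cell type.

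A processed pseudogene arises when a messenger RNA is copied back into DNA and inserted elsewhere, so that it lacks introns and often the promoter of its parent. An unprocessed pseudogene arises by duplication of a stretch of the genome, and a unitary one is a gene that lost its function without leaving a working copy. A polymorphic pseudogene is intact in some individuals or strains and disrupted in the reference. Copies of the mitochondrial genome have also been inserted into the nuclear chromosomes, and some are annotated as pseudogenes. Abundant, widely used transcripts such as those of ribosomal proteins have left many processed copies. Because a pseudogene can be nearly identical to its parent, a short read may fit both equally well.

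The libraries held between 14879734 and 17757918 reads. Each error given is a standard error (SE) of the fitted log2 fold change, with 3 animals in each fraction. It was worked back from the fold change and the statistic of the test described below. All 6 microglial markers rose in Positive, with a median log2 fold change of 4.63, and all 4 markers of border macrophages rose, with a median of 4.17. Of the markers of other cells, all 4 of endothelium rose (median 1.97), all 4 of oligodendrocytes fell (median -2.96) and both of red cells fell (median -2.25). Among 4 astrocyte markers 1 rose and 1 fell, and 0 of 4 neuronal markers passed the test, with log2 fold changes from 0.04 to 0.21. Of the 3 markers of hippocampal principal neurons, Prox1 rose and Wfs1 fell. A rise or fall here is a difference in reads between fractions of the same homogenate. It does not measure the number of cells of a type or the RNA per cell.

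Pseudogenes took between 2.02% and 2.54% of all reads in the 3 Input libraries and between 1.21% and 1.34% in the 3 Positive libraries. Reads were tested with the quasi-likelihood test of edgeR on all rows with over 20 scaled reads in all 3 libraries of either fraction, where scaled reads are reads divided by the size factor of the library. This kept 601 of the 603 pseudogenes. An adjusted p under 0.05 was called, and 84 pseudogenes rose and 124 fell in Positive. Over all 15343 rows tested the called share was 23.9% higher and 22.0% lower, together 46.0%. Among pseudogenes 13.98% rose and 20.6% fell, together 34.6%, so that the share called was below that of all rows. Pseudogenes also had fewer reads, with a median of 73.6 mean scaled reads against 410.6 over all rows. With under 50 mean scaled reads 27.1% of pseudogenes and 42.8% of all rows were called, and from 50 to 100 32.2% and 39.5%. From 100 to 500 these shares were 37.4% and 42.8%, and at 500 or more 57.1% and 50.6%. Their median log2 fold change was -0.03, beside -0.01 over all rows. In 148 pseudogenes every Positive library lay above every Input library, and in 167 every one lay below, while over all rows 28.9% and 27.6% were apart in these directions and 56.5% in either. Passing the authors' filter of at least 20 raw reads rested on both fractions for 510 members, on Input alone for 50 and on Positive alone for 43. Members that passed through 1 fraction alone could hardly be higher in the other. Of the 49 tested that passed through Input alone 24 fell, and of the 42 that passed through Positive alone 17 rose. Without Input of animal 207 the lower count was 82. Under total count scaling, which shifted the median of all rows to -0.09, 65 rose and 144 fell.

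**Figure D1:**
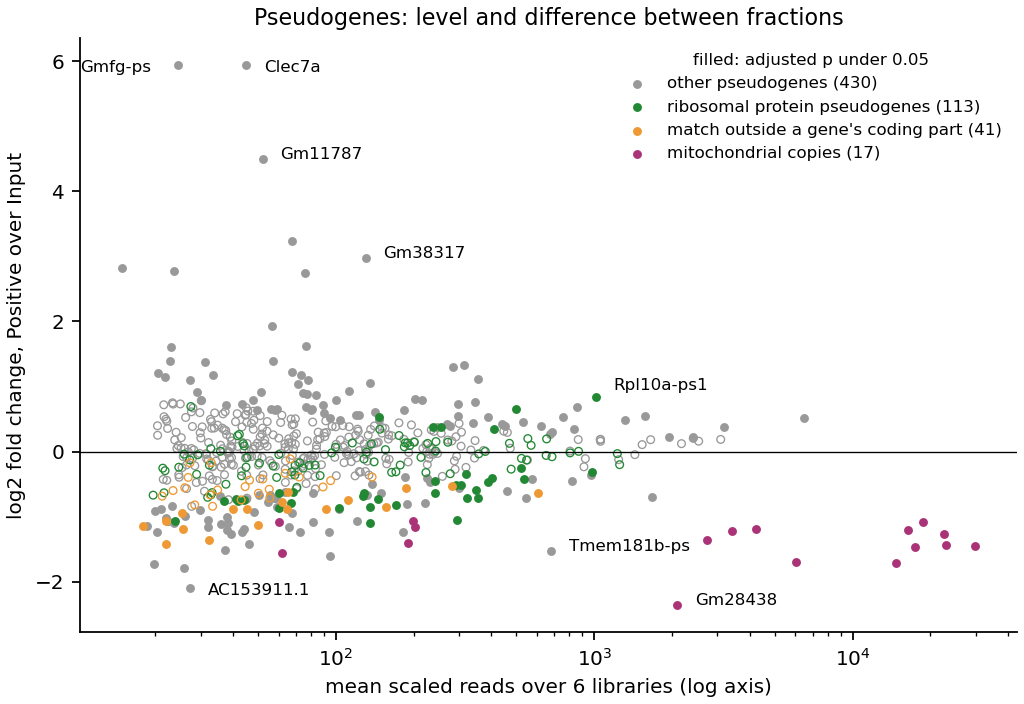
Each point is 1 pseudogene tested, with its mean scaled reads over the 6 libraries on a log axis and its log2 fold change of Positive over Input on the other. Filled points passed the test. The 17 mitochondrial copies in purple all lie below 0, from -2.36 to -1.07, and Gmfg-ps and Clec7a lie at the top near 5.94.

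The most abundant pseudogenes were nuclear copies of mitochondrial genes, and they all fell in Positive. A member was counted as such a copy where its span aligned to the mitochondrial genome with at least 80% identity over at least 50% of its length, which held for 17 members. All 17 fell, with a median log2 fold change of -1.35 and a range from -2.36 to -1.07. Together they held between 62.6% and 71.2% of all pseudogene reads in Input and between 39.6% and 44.7% in Positive. As a share of all reads this was 1.26% to 1.81% in Input and 0.48% to 0.60% in Positive, so that the fractions did not overlap. The table held 0 rows on the mitochondrial genome itself. Reads of pseudogenes other than these copies took 0.73% to 0.75% of all reads in Input and 0.73% to 0.74% in Positive, which overlapped. Input of animal 201 had the highest share, and without it the median of the copies was -1.22 and 16 of 17 passed the test.

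A run of 7 copies lies on the minus strand of chromosome 1 (GRCm38, positions 24611535 to 24616197) in the order of mitochondrial genes for subunits of complexes I, IV and V. These members are Gm28439, Gm10222, Gm28438, Gm28437, Gm10925, Gm28661 and Gm29216, which match mt-Nd4, mt-Nd4l, mt-Nd3, mt-Co3, mt-Atp6, mt-Co2 and mt-Co1 at 99.7% to 100% identity. Gm10925, the copy of mt-Atp6 (a subunit of ATP synthase), had 43003, 26497 and 31198 scaled reads in Input and 12486, 13095 and 11446 in Positive. Gm28661, the copy of mt-Co2 (a subunit of cytochrome c oxidase), had 33770.0, 28970.1 and 32633 scaled reads in Input and 14735, 13005 and 11950.2 in Positive. In both, every Positive library lay below every Input library, and the log2 fold changes were -1.44 (SE 0.15, adjusted p = 5.52e-06) and -1.26 (SE 0.10, adjusted p = 6.46e-07). Gm28438, the copy of the complex I subunit mt-Nd3, had 4082, 3069.8 and 3346 scaled reads in Input and 631, 796 and 616 in Positive. Its log2 fold change of -2.36 (SE 0.12, adjusted p = 8.24e-09) was the lowest of all pseudogenes tested, and it was the only member that fell more than 5-fold, against 0.300% of all rows. Gm28437, the copy of mt-Co3, fell least within the run, at -1.08 (SE 0.12, adjusted p = 1.23e-05).

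A second insertion on chromosome 2 holds Gm13341, Gm13340 and Gm13339, which match mt-Co2, mt-Co1 and mt-Nd2. A pair of copies of the same gene at different identity lies on these chromosomes. Gm13341 and Gm28661 are both copies of mt-Co2, but Gm28661 is identical to it and Gm13341 matches at 95.9%. The 60 bases of the coding sequence of mt-Co2 where Gm13341 differs most, positions 445 to 504, are shown with both copies, and capitals mark bases that differ between Gm13341 and mt-Co2.
mt-Co2: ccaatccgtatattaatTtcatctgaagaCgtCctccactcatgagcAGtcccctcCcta
Gm28661: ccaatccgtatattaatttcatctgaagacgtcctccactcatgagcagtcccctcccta
Gm13341: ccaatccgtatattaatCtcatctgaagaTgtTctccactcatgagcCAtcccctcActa
The window lies at chr1:24615062-24615121, minus strand, in Gm28661 and at chr2:22587471-22587530, minus strand, in Gm13341. In Gm28661 0 of the 60 bases differ and in Gm13341 6 differ. Per kb of exon, Gm28661 had 46682.9 scaled reads in Input and Gm13341 136.9, as means of 3 libraries. Gm13341 had 99.5, 88.03 and 88.4 scaled reads in Input and 39.5, 28.3 and 25.99 in Positive, and fell by 1.56 on the log2 scale (SE 0.24, adjusted p = 0.000156). Both copies fell, the one with few reads and the one with many, and no 42-base window of Gm28661 tells its reads from those of the mitochondrial gene.

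Not every abundant copy was identical to the mitochondrial genome. Gm11410 on chromosome 4 matches mt-Cytb, the cytochrome b of complex III, at 92.9%, and 99.2% of its 42-base windows, the length of a trimmed read, occur nowhere else in the genome or its transcripts. A stretch of 60 coding bases, positions 826 to 885, is shown because it holds 8 differences, marked by capitals.
Gm11410: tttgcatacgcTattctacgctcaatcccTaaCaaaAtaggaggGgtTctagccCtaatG
mt-Cytb: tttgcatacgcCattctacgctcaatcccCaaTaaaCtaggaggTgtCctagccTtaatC
The window of Gm11410 lies at chr4:80004814-80004873, plus strand. Gm11410 had 33525, 19662 and 23347 scaled reads in Input and 10227, 9615 and 7829.5 in Positive, and its log2 fold change was -1.47 (SE 0.17, adjusted p = 1.44e-05). Per kb of exon this was 22319.6 scaled reads in Input and 8069.9 in Positive, of the same order as Gm13340 of chromosome 2 with 28155.9 and 10283.7. The authors' alignment accepted reads with at least 90% identity, and how reads of mitochondrial transcripts were shared among such copies was not tested. The levels of other copies unlike the mitochondrial genome were far lower. AC161426.1 and Gm11512 had 286.8 and 422.8 scaled reads per kb in Input, and AC161426.1 was the copy that did not pass the test without Input of animal 201.

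**Figure D2:**
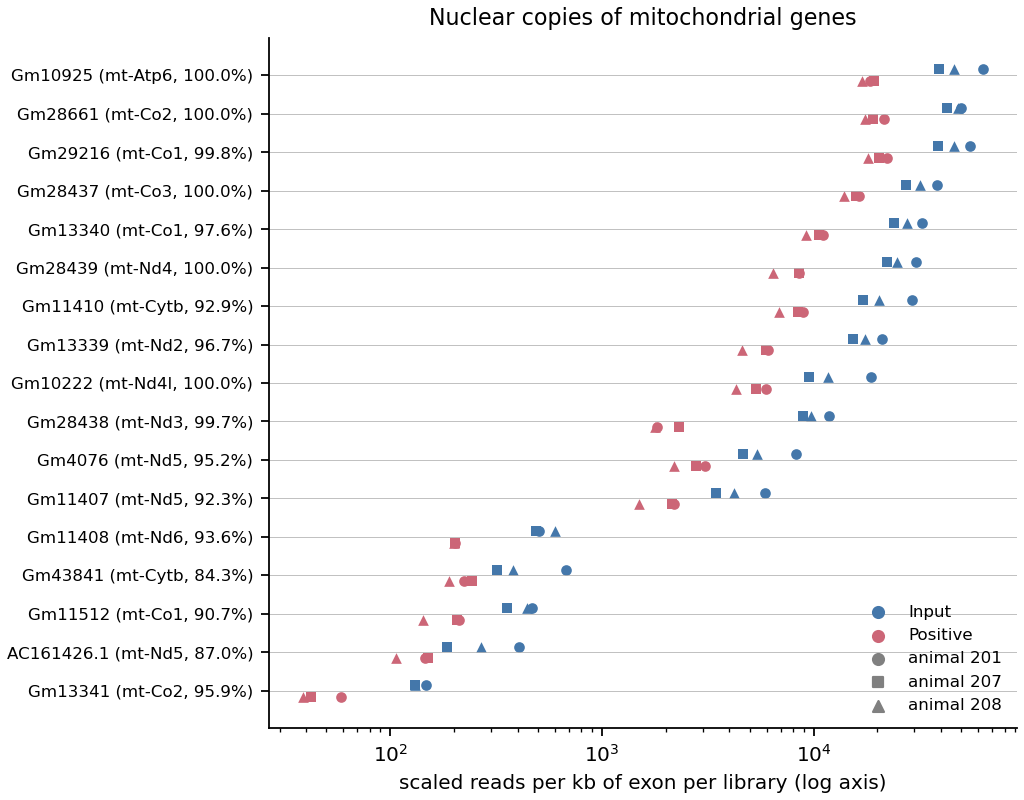
Scaled reads per kb of exon (log axis) of the 17 nuclear copies of mitochondrial genes in each library, with Input in blue, Positive in red and a marker shape for each animal; each label gives the matching mitochondrial gene and the percent identity. In every row all 3 Positive libraries lie to the left of all 3 Input libraries, while levels range from 136.9 in Gm13341 to 49507.7 in Gm10925 as Input means.

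At the other end, the largest rises were of Gmfg-ps, Clec7a and a copy of Lyn, which resemble or are genes of myeloid cells. Over 5-fold higher were 8 members, against 3.75% of all rows tested, and 7 of these 8 had passed the authors' filter through Positive alone. Gmfg-ps is a processed copy of Gmfg, which encodes glia maturation factor gamma, an actin regulator of blood cells and macrophages. It had 2.03, 0 and 0 scaled reads in Input and 51.3, 56.1 and 37.9 in Positive. The 3 Input libraries held 2 reads in all and the 3 Positive libraries 147, a ratio of 73.2 with a 95% exact counting interval from 19.9 to 610 (adjusted p = 3.65e-06). Its parent Gmfg had mean scaled reads of 18.5 in Input and 252 in Positive, and a log2 fold change of 3.75 (adjusted p = 2.5e-08). The parent thus had more reads than the copy in both fractions and rose with it. The size of the gap to Gmfg is uncertain, since both Input reads lie in animal 201. Per animal, with a pseudocount of 1, it was 0.51, 1.62 and 1.99, and the fitted log2 fold change of the copy of 5.94 became 8.62 without that library. The copy matches the coding sequence of Gmfg at 99.3%, and coding positions 271 to 330 are shown because they hold 2 of the differences (capitals).
Gmfg-ps: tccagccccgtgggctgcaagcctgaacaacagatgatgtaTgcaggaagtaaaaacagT
Gmfg: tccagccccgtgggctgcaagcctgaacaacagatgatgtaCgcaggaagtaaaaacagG
The window of Gmfg-ps lies at chr6:4893451-4893510, minus strand. Of its 42-base windows 26.4% occur nowhere else.

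Clec7a, annotated as a polymorphic pseudogene, encodes Dectin-1, the receptor by which macrophages and microglia bind fungal beta-glucan. It had 0, 1.87 and 2.09 scaled reads in Input and 80.04, 135 and 50.7 in Positive. Input held 4 reads in all and Positive 273, a ratio of 68.0 with a counting interval from 26.3 to 251 (adjusted p = 4.1e-06). All its windows were unique to its locus at chr6:129461591-129472779, minus strand. The Positive library of animal 207 was the highest and that of animal 208 the lowest, and all 3 lay far above Input.

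Pseudogenes that copy pieces of Lyn and Itgb5 rose with those genes. Gm11787 is an unprocessed pseudogene on chromosome 4 whose exons match Lyn, a Src-family kinase of myeloid cells and B cells, at 98.8% identity. It had 3.05, 6.55 and 3.13 scaled reads in Input and 87.2, 125 and 87.96 in Positive, a ratio of summed reads of 23.3 with a counting interval from 13.4 to 44.3. Its log2 fold change was 4.50 (SE 0.35, adjusted p = 3.88e-07), and that of Lyn was 4.10 (adjusted p = 5.24e-10). Gm38317 is a processed copy of part of Itgb5, which encodes integrin beta 5, at 99.7% identity and with 9.9% of windows unique. It had 29.5, 31.8 and 26.1 scaled reads in Input and 253, 272 and 171 in Positive, with a log2 fold change of 2.98 (SE 0.23, adjusted p = 2.78e-07), beside 3.36 (adjusted p = 1.09e-09) for Itgb5. In both members the Positive libraries lay above all Input libraries, and Gm38317 passed the filter in Input too.

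A pair of members belongs to families of GTPases that interferons induce. Gm12250, also known as Irgb10, is annotated as processed but matched no protein-coding transcript at the limits used, and all of its windows were unique. It had 3.05, 3.75 and 4.18 scaled reads in Input and 25.2, 26.5 and 26.7 in Positive, so that the 3 Positive libraries lay close together and above all Input libraries. The log2 fold change was 2.81 (SE 0.38, adjusted p = 5.9e-05), and the ratio of summed reads was 7.25 with a counting interval from 3.84 to 15.1. Gm8995 resembles Gvin1, a very large interferon-induced GTPase, at 91.8% identity, and Gvin1 itself had no row in the table. In the stretch with the most differences (Gvin1 coding positions 6397 to 6456) 24 of 60 bases differ, marked by capitals.
Gm8995: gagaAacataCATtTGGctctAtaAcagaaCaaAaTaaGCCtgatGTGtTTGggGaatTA
Gvin1: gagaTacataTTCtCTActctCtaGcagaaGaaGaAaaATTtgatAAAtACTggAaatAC
The window of Gm8995 lies at chr7:106505210-106505269, minus strand. Gm8995 had 28.97, 13.8 and 17.2 scaled reads in Input and 92.4, 158 and 146 in Positive, with a log2 fold change of 2.74 (SE 0.30, adjusted p = 1.05e-05). The promoter of Gm12250 is shown as 1 of 2 named members whose promoter held the interferon response letters searched for, and the other, Gm5373, fell. It is the RefSeq promoter (GRCm38.p6, chr11:58183593-58183892, plus strand, 250 bases before and 50 after the start), and capitals mark 2 matches, both on the opposite strand, to the interferon response letters searched, which are GAAA, a gap of any 2 bases and GAAA again.
Gm12250 promoter: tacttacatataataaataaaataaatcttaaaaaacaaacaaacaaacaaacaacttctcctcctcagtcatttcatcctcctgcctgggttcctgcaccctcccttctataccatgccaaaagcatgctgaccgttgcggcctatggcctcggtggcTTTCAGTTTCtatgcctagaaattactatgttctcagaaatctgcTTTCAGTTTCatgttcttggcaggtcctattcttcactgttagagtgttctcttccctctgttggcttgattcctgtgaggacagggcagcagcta
RefSeq places this start upstream of the span of the table, which begins at position 58187739. These letters occurred on either strand in 3.44% of all 32851 promoters of this length and in 2 of 21 promoters of members. Promoters were listed for 17 of the 603 members, and a match says only that the letters are there. The PU.1 motif GAGGAAGT occurred on either strand in 3.20% of all promoters, in 1 of the 21 promoters of members and in 0 of the 4 promoters of members that rose.

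Other large rises were of AC139568.1, Gm19680, Gm13597, Gm1826 and Znf41-ps. AC139568.1 is identical over 483 aligned coding bases to Phf14, which encodes a chromatin-binding PHD finger protein, and 0.7% of its windows were unique. It had 6.10, 7.49 and 4.18 scaled reads in Input and 43.1, 50.04 and 31.04 in Positive, with a log2 fold change of 2.77 (SE 0.36, adjusted p = 4.64e-05), while Phf14 was at 0.13 (adjusted p = 0.282). Summed reads gave a ratio of 6.97 with a counting interval from 4.24 to 12.1. Gm19680 copies Paox, a polyamine oxidase, at 99.9%. It had 34.05, 40.3 and 37.6 scaled reads in Input and 113, 136 and 100.4 in Positive and rose by 1.63 (SE 0.21, adjusted p = 4.94e-05), beside 0.45 (adjusted p = 0.0356) for Paox, whose mean scaled reads were 109 in Input and 149 in Positive. One base of the 60 shown (capital; Paox coding positions 979 to 1038) differs between them, which leaves few windows to tell the pair apart.
Gm19680: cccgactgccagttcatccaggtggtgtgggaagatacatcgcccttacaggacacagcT
Paox: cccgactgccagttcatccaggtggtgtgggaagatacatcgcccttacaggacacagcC
The window of Gm19680 lies at chr1:31616126-31616185, plus strand. Gm13597, identical to Tax1bp3 and with 0 unique windows, had 10.7, 13.3 and 10.5 scaled reads in Input and 42.1, 32.8 and 28.5 in Positive, and its log2 fold change of 1.60 (SE 0.31, adjusted p = 0.00115) was close to 1.54 (adjusted p = 4.76e-05) of Tax1bp3. Gm1826, a copy of the chromatin remodelling subunit Ss18, had 33.5, 31.4 and 29.8 scaled reads in Input and 70.6, 86.2 and 92.6 in Positive and rose by 1.40 (SE 0.23, adjusted p = 0.000306), beside 0.73 (adjusted p = 0.000181) for Ss18. Znf41-ps, whose closest gene Zfp991 had no row, had 28.6, 21.8 and 20.4 scaled reads in Input and 83.7, 104 and 81.4 in Positive and rose by 1.92 (SE 0.25, adjusted p = 3.82e-05). Like AC139568.1, Gm13597 and Znf41-ps passed the filter through Positive alone.

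**Figure D3:**
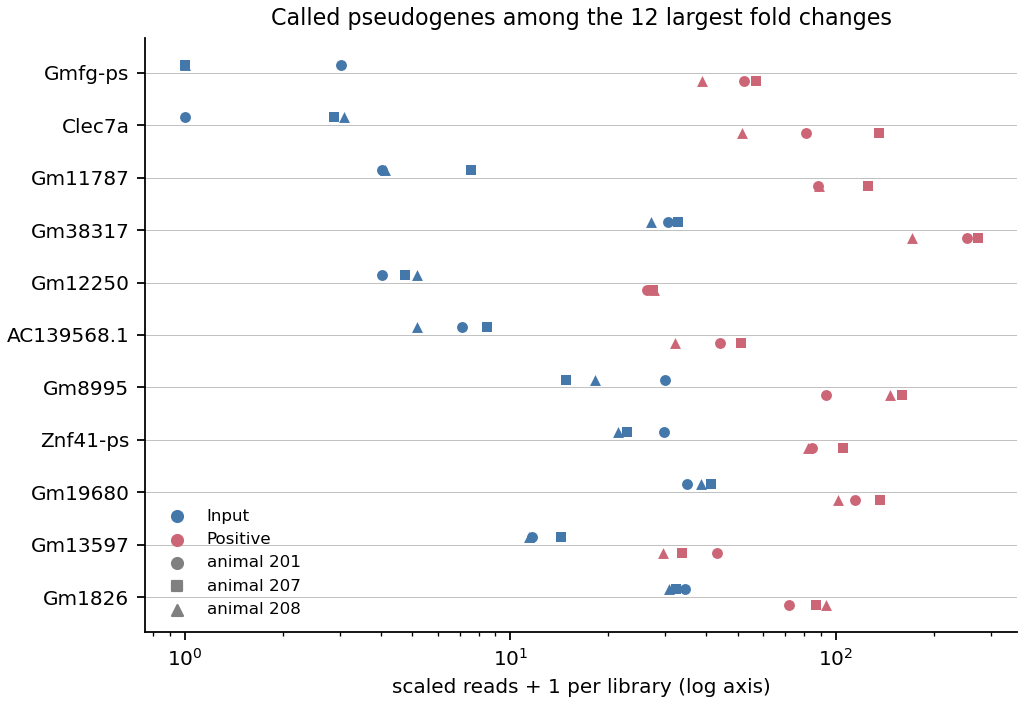
Scaled reads plus 1 (log axis) of 11 of the 12 called pseudogenes with the largest log2 fold changes, ordered from Gmfg-ps at the top to Gm1826 at the bottom, with Input in blue, Positive in red and a marker shape for each animal. In all 11 the 3 Positive points lie to the right of the 3 Input points.

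Each pseudogene was then set beside its parent, taken from the symbol in 93 members and from the best protein-coding match of at least 80% identity over at least 50% of the span in 432. The median identity of these matches was 98.6%, and 443 members reached 95%. The parent was also tested for 463 members, which had 348 different parents. The parent had more Input reads than the pseudogene in 441 of the 463. The median log2 fold change was 0.07 over these pseudogenes and 0.06 over their parents, each counted once. Pseudogene and parent differed by a median of 0.16 on the log2 scale, and by more than 1 in 7 pairs. Across the pairs Pearson's r was 0.81, as a description, since reads of near-identical copies may be shared and 1 parent can stand beside several copies. In the 120 pairs whose pseudogene had at least 50% of its windows unique r was 0.75, and in the 343 others 0.82. By identity r was 0.86 in the 208 pairs at 99% or more, 0.80 in the 211 from 95% to 99% and 0.56 in the 44 under 95%. The median gap was 0.17, 0.14 and 0.27 in this order. The set at 99% or more holds Gmfg-ps and Gm38317, and r depends on such large changes. Some of the 44 matched only outside the coding part of the gene taken as parent. In these 44 the median log2 fold change was 0.01 over pseudogenes and 0.20 over parents. Both rose in 58 pairs, both fell in 49, and in 25 pairs the pseudogene was called and the parent was not.

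Of the 463 pairs, 1 was called in opposite directions. It was Gm7061 and U2af2, the gene of a splicing factor that binds the polypyrimidine tract. Gm7061, on the X chromosome, had 24.3, 45.6 and 21.7 scaled reads in Input and 15.4, 8.02 and 4.14 in Positive, with a log2 fold change of -1.73 (SE 0.45, adjusted p = 0.00712). U2af2 was at 0.33 (adjusted p = 0.00234). Gm7061 can be told from U2af2 by its letters, since the match is 91.6% and 97.2% of its windows were unique. The coding window with the most differences, positions 16 to 75, is shown with 12 of them in capitals.
Gm7061: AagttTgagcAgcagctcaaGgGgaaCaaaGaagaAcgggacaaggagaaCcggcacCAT
U2af2: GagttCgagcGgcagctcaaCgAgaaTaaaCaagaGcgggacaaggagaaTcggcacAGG
The window of Gm7061 lies at chrX:94773960-94774019, minus strand. The gap to U2af2 was -1.03, -2.65 and -2.45 in animals 201, 207 and 208, so its size differed between animals and its direction did not. Its reads were few, and it passed the filter in Input alone.

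Rpl10a-ps1 stood out among abundant copies. Rpl10a encodes ribosomal protein L10a, the protein that carries the GFP tag in this reporter. Rpl10a-ps1 had 661, 773 and 753 scaled reads in Input and 1325, 1314 and 1274 in Positive, and its log2 fold change was 0.84 (SE 0.09, adjusted p = 5.04e-06), the largest of the ribosomal protein pseudogenes. Rpl10a itself had mean scaled reads of 478 in Input and 485 in Positive, and a log2 fold change of 0.02 (adjusted p = 0.881). The copy thus had more reads than its parent in both fractions. The 651 bases of the coding sequence of Rpl10a are identical in the copy, as its first 60 show, with no base in capitals since none differs.
Rpl10a-ps1: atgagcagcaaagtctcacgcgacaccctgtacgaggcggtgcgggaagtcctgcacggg
Rpl10a: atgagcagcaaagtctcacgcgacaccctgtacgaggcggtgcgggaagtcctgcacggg
The window of Rpl10a-ps1 lies at chr1:64994545-64994604, minus strand. No 42-base window of Rpl10a-ps1 was unique, so single reads from the coding part of Rpl10a, or of any further copy with the same letters, cannot be told apart from its own. The sequence of the tagged transgene was not used here, and its part in these reads was not tested.

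**Figure D4:**
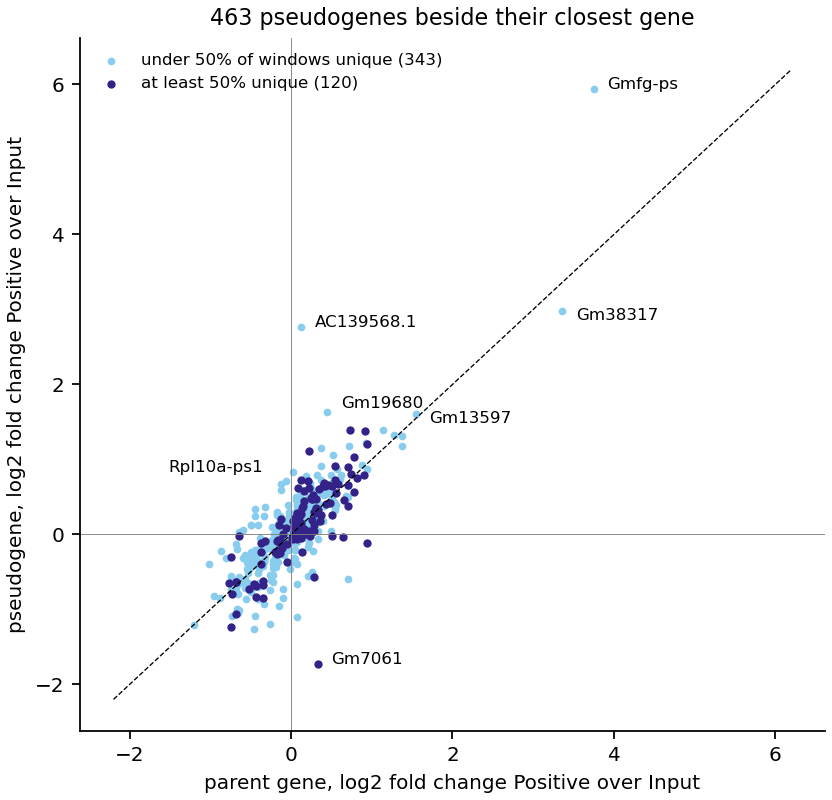
Log2 fold change of Positive over Input of 463 pseudogenes (vertical axis) against that of the parent gene (horizontal axis), dark where at least 50% of the pseudogene's windows were unique; the dashed line marks equality. Most points lie near the line, with AC139568.1 above it by 2.65, Gm7061 at -2.06 from it, and Gmfg-ps above it by 2.19, a gap that rests on 2 Input reads.

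Among further copies that rose were those of Capza1, Hnrnpf, Rhoa and Gpr137b, whose parents rose too. The copies were named after their values had been seen. Gm3608 copies Capza1, which caps actin filaments, with 10.4% of windows unique. It had 166, 194 and 177 scaled reads in Input and 397, 533 and 417 in Positive. Its log2 fold change of 1.32 (SE 0.14, adjusted p = 8.18e-06) stood beside 1.27 (adjusted p = 2.25e-05) for Capza1. Gm6430 and Gm12435 both copy Hnrnpf, the gene of an RNA-binding protein of splicing, with 24.4% and 17% of windows unique. Gm6430 had 162, 149.5 and 181 scaled reads in Input and 410.2, 454 and 355 in Positive, and both rose, at 1.31 (SE 0.14, adjusted p = 7.17e-06) and 1.18 (SE 0.20, adjusted p = 0.000402), beside 1.37 (adjusted p = 8.79e-08) for Hnrnpf. Gm13578 and Gm12844 copy Rhoa, a small GTPase of the actin cytoskeleton, with 64.3% and 49.9% of windows unique. They were at 1.20 (SE 0.31, adjusted p = 0.00743) and 0.87 (SE 0.21, adjusted p = 0.00414), and Rhoa was at 0.94 (adjusted p = 3.64e-06). Gpr137b-ps, a copy of the lysosomal membrane protein gene Gpr137b with 61.5% of windows unique, had 146, 150.0 and 145 scaled reads in Input and 242, 294 and 234 in Positive. In it too the fractions did not overlap, and its log2 fold change was 0.80 (SE 0.14, adjusted p = 0.000598), beside 0.74 (adjusted p = 0.00104) for Gpr137b. Of 4 copies of Ppia, a cyclophilin, 3 rose, up to 0.76 (SE 0.18, adjusted p = 0.00395) in Gm10123, while Ppia was at 0.18 (adjusted p = 0.0577). The difference from the parent was not tested. Gm10123 has 0 unique windows. Gm6548, a copy of the translation elongation factor gene Eef1a1 with 67.2% of windows unique, had 60.8, 34.04 and 54.05 scaled reads in Input and 109, 138 and 72.9 in Positive and was at 1.11 (SE 0.28, adjusted p = 0.00637), beside 0.22 (adjusted p = 0.0499) for Eef1a1. 2810025M15Rik had no parent and 86.1% of windows unique. It had 203, 247 and 219 scaled reads in Input and 468, 528 and 459 in Positive, without overlap of the fractions, and rose by 1.12 (SE 0.12, adjusted p = 9.56e-06).

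Ribosomal protein copies formed the largest family, with 113 members tested. Of these 6 rose and 30 fell, or 5.3% and 26.5%, beside 23.9% and 22.0% over all rows tested. The share that fell was near that of all rows, and the share that rose was below it. The median log2 fold change was -0.21. The 87 genes of cytosolic ribosomal proteins had a median of -0.29, with 4 higher and 46 lower. Without Input of animal 207 the pseudogenes that fell numbered 14, without Input of animal 208 20, and under total count scaling 36. Among those that fell were Gm14303, a copy of Rps29 (-1.09, SE 0.19, adjusted p = 0.000484), Gm4332, a copy of Rps20 (-1.05, SE 0.17, adjusted p = 0.000308), and Rpsa-ps1, a copy of the laminin receptor and ribosomal protein gene Rpsa (-0.85, SE 0.18, adjusted p = 0.00231). These proteins belong to the small subunit of the ribosome, and their parents were at -0.73 (adjusted p = 3.12e-05), -0.66 (adjusted p = 0.000196) and -0.35 (adjusted p = 0.00169). Beside Rpl10a-ps1 the members that rose were Rps4l, Gm12174, Gm11518, Rpl7-ps7 and Rpl5-ps1, with log2 fold changes from 0.35 to 0.65. Of these, Gm12174 and Rpl7-ps7 both copy Rpl7, which was at 0.41 (adjusted p = 0.000785).

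The called shares of smaller families stand beside 23.9% higher and 22.0% lower over all rows. Of 17 respiratory chain pseudogenes 9 fell and 0 rose, with a median of -0.42, a share lower of 52.9%. Gm12338 and Gm10012 both copy Cox7c, a subunit of cytochrome c oxidase, and were at -0.79 (SE 0.16, adjusted p = 0.0012) and -0.66 (SE 0.17, adjusted p = 0.00565), beside -0.65 (adjusted p = 0.00027) for Cox7c. Gm10221 and Gm4853 both copy Atp5l, a subunit of ATP synthase, and were at -0.57 (SE 0.15, adjusted p = 0.008) and -1.01 (SE 0.29, adjusted p = 0.0141), beside -0.65 (adjusted p = 0.0015). Of 11 heat shock pseudogenes 4 rose and 0 fell, with a median of 0.20, and with so few members this share higher of 36.4% is near that of all rows. The most abundant pseudogene that was no mitochondrial copy, Gm15459, copies the constitutive chaperone Hspa8, with 4.9% of windows unique. It had 5634, 5168 and 5304 scaled reads in Input and 7692, 7389.7 and 7850.5 in Positive, with a log2 fold change of 0.51 (SE 0.08, adjusted p = 0.000159), beside 0.51 (adjusted p = 0.00017) for Hspa8. The 4 other copies of Hspa8 were spread from -0.03 in Gm8326 to 0.65 in Gm8337, and 2 of them rose. Of the copies of glycolytic genes 2 of 6 rose, of translation factors 5 of 14 rose and 3 fell, of the ubiquitin and proteasome system 2 of 13 rose, and of histones and high mobility group proteins 2 of 5 rose. With these few members, such counts are near the shares over all rows and are no result about the families. No copy of a keratin gene was tested. The lists were made from parent symbols, and reads shared with those parents were not separated.

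A set of 41 members had a parent by sequence whose coding part they did not touch, so that the name of the parent says nothing of what the copy once encoded. For 28 of them the match was the long 3′ untranslated part of Vmn2r79, a vomeronasal receptor gene with no row in the table, at 87.0% to 93.7% identity. The others matched parts outside the coding sequence of Olfr46, Noct, Gm42669, Emd, Nr2c2, Vmn1r81 and Vmn2r53. Over all rows tested 23.9% rose and 22.0% fell. Of the 41, 18 fell and 0 rose, and every one had a log2 fold change below 0, from -1.43 to -0.11 with a median of -0.64. This set was put together after the values had been seen. Its reads were few, with a median of 46.3 mean scaled reads. Members that passed the filter through Input alone could hardly rise, and how many of the 41 these were was not counted. The counts beside all rows are therefore no test of the set. With at least 100 scaled reads 7 members remained, of which 6 fell and 0 rose. Without Input of animal 201 the number that fell was 12 and the median -0.51. The 28 copies lie on 8 chromosomes, 25 of them outside genes of either strand, and a median of 13.6% of their windows was unique. Members of the set resembled each other at separate loci. Gm44578 aligned to AC153532.3 over 3842 bases at 90.4% identity and AC157570.1 over 3814 at 90.2%. AC153532.3 had 43.6, 27.99 and 25.3 scaled reads in Input and 12.3, 12.1 and 10.9 in Positive, with a log2 fold change of -1.43 (SE 0.33, adjusted p = 0.00363). Gm44578 had 70.5, 30.9 and 38.4 scaled reads in Input and 22.2, 9.88 and 21.7 in Positive, and AC157570.1 had 93.5, 56.2 and 56.4 scaled reads in Input and 38.99, 27.8 and 26.9 in Positive. In each of these 3 all Positive libraries lay below Input, and Input of animal 201 was the highest library. AC153532.3 and Gm44578 passed the filter through Input alone. The most abundant of the 28 was Gm42785, with 289, 204 and 177 scaled reads in Input and 157, 145 and 153 in Positive and a log2 fold change of -0.56 (SE 0.18, adjusted p = 0.0229). No annotation of repeats was used.

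The 2 unprocessed types differed in their counts. Of the 28 transcribed unprocessed pseudogenes 2 rose and 13 fell, a share lower of 46.4% against 22.0% of all rows, with a median of -0.59. Of the 35 others annotated as unprocessed 5 rose and 13 fell, but 10 of those that fell were mitochondrial copies. Without these copies 5 of 25 rose and 3 fell, with a median of -0.10. The 516 processed pseudogenes outside the mitochondrial set had a median of 0.02, with 74 higher and 88 lower, or 14.3% and 17.1%. The difference between the types was not tested. Tmem181b-ps, a transcribed unprocessed pseudogene, had 1005, 996 and 1024 scaled reads in Input and 356, 369 and 327 in Positive. Its log2 fold change was -1.52 (SE 0.09, adjusted p = 2.66e-08), and Tmem181a, which its exons match at 98.8%, was at -0.92 (adjusted p = 6.51e-07). Members with exons that match Cdh11, a cadherin, numbered 4, and 3 of them fell: 6820431F20Rik, 2610005L07Rik and Gm21811, at -0.70, -0.72 and -0.90. The most abundant, 6820431F20Rik, had 2254, 2014 and 1972 scaled reads in Input and 1339, 1407 and 1085 in Positive, while Cdh11 itself was at -0.16 (adjusted p = 0.197). Gm5373, whose exons match Gm7697, had 42.7, 26.5 and 50.7 scaled reads in Input and 18.5, 1.85 and 14.5 in Positive and was at -1.79 (SE 0.49, adjusted p = 0.00983). Gm5373 passed the filter through Input alone.

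Several of the lowest members had no close parent among measured genes. AC153911.1, a transcribed processed pseudogene on chromosome 10 with all windows unique, had 38.6, 55.9 and 38.6 scaled reads in Input and 14.9, 9.49 and 6.21 in Positive and a log2 fold change of -2.11 (SE 0.35, adjusted p = 0.000355). AC154630.1, with 10.6% of windows unique, had 156, 127 and 146 scaled reads in Input and 59.5, 44.5 and 37.3 in Positive and was at -1.60 (SE 0.21, adjusted p = 5.64e-05). 4930431P19Rik, whose exons match the transcription factor gene Btf3 at 81.6%, had 63.01, 59.9 and 42.98 scaled reads in Input and 31.8, 12.97 and 13.5 in Positive and was at -1.51 (SE 0.35, adjusted p = 0.0034), beside 0.32 (adjusted p = 0.00918) for Btf3. In all 3 the Positive libraries lay below the Input libraries, and AC153911.1 and 4930431P19Rik passed the filter in Input alone.

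Polymorphic and unitary pseudogenes are the members that stand in place of a gene. Of the 4 polymorphic ones Clec7a rose and Pcdhgb8 fell. Pcdhgb8, of the clustered protocadherins by which neurons tell themselves from others, had 24.9, 32.9 and 27.3 scaled reads in Input and 16.5, 5.90 and 14.7 in Positive and was at -1.24 (SE 0.37, adjusted p = 0.0161). Pcdhgb8 passed the filter through Input alone. It lies on the same strand within Pcdhga1, whose cluster shares 3′ exons, and it lost the call without Input of animal 207 (adjusted p = 0.0649, edgeR) or Positive of animal 207 (adjusted p = 0.0614). Atp10d, a lipid flippase, was at 0.14 (SE 0.26, adjusted p = 0.692) and Hyi, a putative hydroxypyruvate isomerase, at -0.15 (SE 0.23, adjusted p = 0.617). Of the 5 unitary ones Zfp133-ps fell, with 43.6, 41.2 and 45.3 scaled reads in Input and 22.4, 19.5 and 20.9 in Positive (-1.05, SE 0.26, adjusted p = 0.00511). Zfp862-ps was at 0.37 (SE 0.14, adjusted p = 0.0496), with 209, 214 and 222 scaled reads in Input and 227, 307 and 298 in Positive, just inside the threshold, and lost the call under 9 of 13 alternatives with adjusted p from 0.0501 to 0.175. Thap6, 1700086L19Rik and Slc2a4rg-ps were at -0.21, -0.32 and -0.01, with adjusted p of 0.52, 0.291 and 0.974.

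Of the 6 most abundant copies whose symbol names a measured parent, Rpl10a-ps1 rose, Rpl14-ps1 fell and 4 did not pass the test. Rpl14-ps1 fell, with 1138, 1072 and 1052 scaled reads in Input and 841, 888 and 888 in Positive (-0.32, SE 0.08, adjusted p = 0.00574), beside -0.60 (adjusted p = 0.000772) for Rpl14. Pgam1-ps2 copies a glycolytic mutase and was at 0.18 (SE 0.09, adjusted p = 0.0996), and Tpt1-ps3, a copy of the translationally controlled tumour protein gene, was at 0.16 (SE 0.08, adjusted p = 0.14). Rps6-ps4 was at -0.20 (SE 0.10, adjusted p = 0.107) and Pisd-ps1, a copy of the gene of phosphatidylserine decarboxylase, at -0.12 (SE 0.12, adjusted p = 0.415). Pgam1-ps2, Tpt1-ps3 and Rps6-ps4 are identical to their parents over the whole span, with 0 unique windows. Inside a gene on the same strand were 53 members, of which 9 rose and 11 fell, or 17.0% and 20.8%. Outside such genes 75 of 548 rose and 113 fell, or 13.7% and 20.6%. Over all rows tested 23.9% rose and 22.0% fell, so the shares that fell were near that of all rows in both sets.

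**Figure D5:**
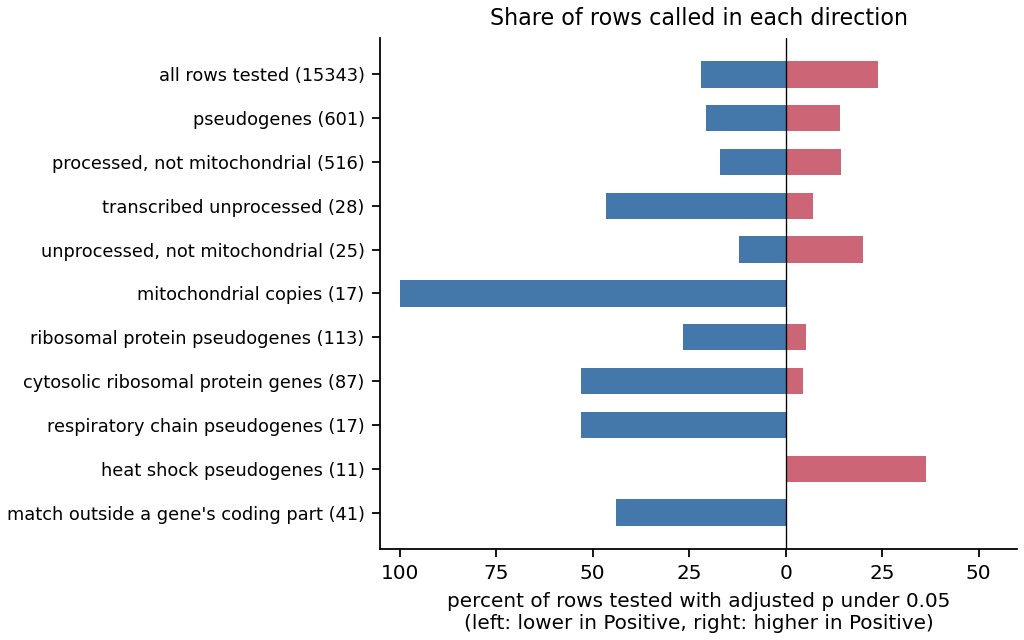
Percent of the rows tested in each group with an adjusted p under 0.05, lower in Positive to the left and higher to the right; the number tested is in brackets. The bar of the mitochondrial copies reaches 100% on the left, and respiratory chain pseudogenes and matches outside a gene's coding part have no bar on the right.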

How the data were processed

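RNA of 3 Input and 3 Positive fractions of hippocampus was sequenced. Per the methods of the study, reads were paired-end and 50 bases long. The authors trimmed 2 bases from the 5′ and 6 from the 3′ end. They aligned the reads by strand to mm10 in Strand NGS at an identity of at least 90%. They deposited estimated counts per gene, which are not whole, for genes with at least 20 raw reads in all 3 libraries of either fraction. The log2 columns the authors deposited, normalized with DESeq, were not used for tests. How reads that fit several loci were assigned is not given in the sources used here.

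Estimated counts were rounded, scaled by relative log expression and tested over all 15343 rows that passed the filter, 45 being removed, with the unpaired quasi-likelihood test of edgeR 4.0.16 (R 4.3.3, two-sided, Benjamini-Hochberg adjustment). Counts of the Positive against Input comparison were also simulated, with 14975 to 15010 genes. The fit recovered 100.0% of the genes given a change, and 6.19% of calls were false. Every gene given a change got the same large size of change, up or down. Recovery could therefore not be split by size, and it was not split by number of reads. Only a small part of the genes was given a change, while 46.0% of rows were called in the data. These rates therefore cannot be carried over to small changes or to rows with few reads. Counting intervals are exact and cover counting error only. Parents were found with blastn 2.17.0 against GENCODE M21 transcripts. Windows of 42 bases were compared by exact letters with the genome and all transcripts. A window stands for a single read, and whether the mate of a read could place the pair was not tested. Genome positions are GRCm38 (mm10), and values per kb use exons of GENCODE M21. Promoters came from RefSeq.

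Pseudogenes named were the 12 largest and 12 smallest called changes with the same direction in all 3 animals, the 5 most abundant, all polymorphic and unitary members, and up to 6 abundant members with a parent in the symbol; 1 of the 12 largest is not reported here, and others were named after their values were seen. The members and gene lists were chosen with earlier results of these data known. Alternatives were TMM and total count scaling, other filters, halved reads, DESeq2 1.42.0, a block for the animal, and leaving out each library. The same animal gave both libraries of a number, and same-numbered libraries deviated together with correlations of 0.19, 0.06 and 0.12. The unbound fraction was not analysed here.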

Additional observations from a re-analysis of the deposited data

How the results depend on the processing

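Of 114 alternative values of the main counts and medians, 94 stayed within the tolerance used. For counts this tolerance was wide, since 56 that rose without Input of animal 207 still counted as unchanged from 84. With at least 100 scaled reads 41 pseudogenes rose and 66 fell, 1 of them over 5-fold higher, and outside same-strand genes 39 rose and 60 fell; the median was 0.091 over pseudogenes with a measured parent and 0.03 over parents. Among members with at least 50% of windows unique, counted so after seeing the data, 25 rose, 42 fell and 3 rose over 5-fold. Total count scaling moved the median of pseudogenes to -0.109, that of those with a measured parent to -0.011 and that of parents to -0.022.

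Leaving out 1 library gave between 82 and 117 pseudogenes that fell and between 56 and 86 that rose. The median of pseudogenes then lay between -0.047 and -0.006, that of those with a measured parent between 0.056 and 0.096 and that of parents between 0.026 and 0.067. Single members that changed sign were never called. Atp10d ranged from -0.033 to 0.408, Slc2a4rg-ps from -0.255 to 0.219 and was 0.165 without Input of animal 201, Pisd-ps1 ranged from -0.236 to 0.021 and Hyi from -0.457 to 0.041. Rps6-ps4 passed the test under total count scaling (adjusted p = 0.0319, edgeR) and without Input of animal 201 (adjusted p = 0.0161). The cause was not tested.

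With the animal as a replicate block 90 pseudogenes rose and 136 fell, and 207 of the 208 calls were kept. DESeq2 called 71 higher and 97 lower. Of the 41 members named by rule, 34 kept direction and side of the threshold under every alternative. Depth limits the 210 members with under 50 scaled reads on average, whose median SE was 0.29.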
